A study of Mus musculus with 12 samples.

Results

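Liver mRNA of the Gstm cluster, 7 neighbouring genes (Gstm1 to Gstm7) that encode mu-class glutathione S-transferases, was examined in 4 mouse genotypes. Members were all probe sets whose only gene symbol was one of these 7. This gave 7 of 5855 genes measured and 11 of the 9622 probe sets in the table, with 4 for Gstm1, 2 for Gstm3 and 1 for each of the others. No probe set with several symbols included a member. The genotypes form a series of Nrf2 activity, and each had 3 mice with 1 array per mouse. Keap1-HKO mice came from a cross of Keap1-KD mice with mice that carry AlbCre, so that Keap1 was deleted in hepatocytes only, on top of a lower Keap1 in the other cells. Keap1-KD mice had less Keap1 in the whole body. Nrf2-null mice lacked Nrf2 in every cell, and wild-type mice carried none of these alleles. All mice were untreated males on the C57BL/6 background at 8 weeks of age. The question was whether a gene of one cluster needs Nrf2 for its basal mRNA, rises when Keap1 is lost, or both.

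Nrf2 is a transcription factor that Keap1 holds in the cytoplasm and marks for degradation, so that loss of Keap1 lets Nrf2 enter the nucleus. There Nrf2, with a small Maf partner, binds antioxidant response elements and switches on genes for detoxication and glutathione supply. Glutathione S-transferases join glutathione to electrophiles, and those of the mu class are soluble enzymes of liver cells that work as dimers. Their products leave the hepatocyte through efflux transporters.

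In the RefSeq annotation of GRCm38.p6 the cluster lies on chromosome 3. Gstm5 comes first and reads on the plus strand, and after it come Gstm7, Gstm6, Gstm3, Gstm2, Gstm1 and Gstm4, all on the minus strand. All 7 genes had 1 or more start-site windows of 300 bases (250 before and 50 after the start, 12 windows in all). The core of the antioxidant response element, TGACNNNGC on either strand, was in 2 of the 12 windows, in those of Gstm5 and of Gstm7, at 42 and 129 bases before the start, with the core's first base counted. Over all windows of this length in the genome 12.4% of 32851 held it, and 14.0% of 27025 genes had such a window. The core does not overlap another motif searched, since only this one was searched. Bases before the start are shown 5′ to 3′ for the members with a match and, for comparison, for Gstm3 and Gstm1, the members whose mRNA fell without Nrf2; capitals mark the core. They are chr3:107895604-107895853 (plus strand) for Gstm5, chr3:107931724-107931753 (minus) for the stretch around the match of Gstm7, chr3:107969175-107969424 (minus) for Gstm3 and chr3:108017974-108018223 (minus) for Gstm1, all in GRCm38.p6.
Gstm5: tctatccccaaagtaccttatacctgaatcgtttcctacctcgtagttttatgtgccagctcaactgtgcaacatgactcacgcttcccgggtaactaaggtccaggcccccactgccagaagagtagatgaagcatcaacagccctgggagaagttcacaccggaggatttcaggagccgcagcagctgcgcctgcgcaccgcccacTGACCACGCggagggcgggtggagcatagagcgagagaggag
Gstm7: tctgaagaccTGACAAAGCgaagccaatcc
Gstm3: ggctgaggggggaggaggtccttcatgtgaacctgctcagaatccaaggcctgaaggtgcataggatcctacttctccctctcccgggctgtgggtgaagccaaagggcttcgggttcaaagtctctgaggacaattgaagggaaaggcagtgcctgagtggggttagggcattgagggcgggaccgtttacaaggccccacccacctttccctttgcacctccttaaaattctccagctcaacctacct
Gstm1: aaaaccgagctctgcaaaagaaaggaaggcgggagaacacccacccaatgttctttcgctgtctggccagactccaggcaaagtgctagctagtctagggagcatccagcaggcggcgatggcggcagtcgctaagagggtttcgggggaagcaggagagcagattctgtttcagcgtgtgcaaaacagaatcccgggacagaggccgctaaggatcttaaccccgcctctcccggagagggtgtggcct
The windows of Gstm1, Gstm2, Gstm3, Gstm4 and Gstm6 did not have these letters, which says nothing of sequence farther away. The study's own search of longer upstream sequence listed the core for each of these genes, beyond the reach of these windows.

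The targeted genes were lower in the genotypes that the labels name. Mean log2 values of Keap1 were 3.36 in Keap1-HKO, 5.70 in Keap1-KD and 7.86 in wild-type mice. Those of Nfe2l2, which encodes Nrf2, were 2.35 in Nrf2-null and 8.90 in wild-type mice. Except in wild-type mice these means were under an intensity of 100, so the sizes of the falls are not ranked. Nfe2l2 was also lower in Keap1-HKO than in wild-type mice (log2 fold change −0.70, limma, adjusted p = 0.0473). Hepatocyte markers (12 of 12 measured) were high on all 12 arrays. Their list medians on the log2 scale were 14.57, 14.76 and 14.83 on Keap1-HKO arrays and 15.05 to 15.25 on the others. In Keap1-HKO against wild-type mice 1 of the 12 was called, Fgb, which was lower (−0.46, limma, adjusted p = 0.0466). The median log2 fold change of the 12 was 0.02. Some arrays stood apart. Keap1-HKO replicate 1 and Nrf2-null replicate 1 differed from the median of their genotype by a mean of 0.835 and 0.521 on the log2 scale over all probe sets, against 0.0674 to 0.178 on the other 10 arrays. Pancreas acinar transcripts (13 of 18 markers measured, all above an intensity of 100 there) had list medians of 14.3 and 11.2 on replicates 2 and 3 of Keap1-HKO mice; elsewhere the medians were 2.29 to 2.38. Skeletal muscle transcripts (11 of 16 measured) had medians of 10.9 and 9.50 on the same arrays and 10.4 on wild-type replicate 2, against 2.31 to 2.93 elsewhere. Of other liver cell markers, those of stellate cells (7 of 9 measured) had medians of 7.84 to 8.80 in Keap1-HKO mice and 8.99 to 9.47 in wild-type mice, with 6 of 7 lower and 0 called, and those of Kupffer cells (8 of 10) had 8.98 to 9.26 in Keap1-HKO and 9.25 to 9.52 in wild-type mice, with 0 called. Of endothelial markers (7 of 8) 0 were called. The 1 of 5 blood cell markers measured, Alas2, fell in Keap1-HKO mice (−1.42, adjusted p = 0.0197). The part of these cells in the values of the cluster was not tested. Counts are given with and without the arrays that stood apart. In whole liver, fewer cells of a type and less RNA per cell cannot be told apart.

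Gstm1, a major transferase of mouse liver, had 4 probe sets. Probe set 1448330_at, the brightest of them, had log2 values of 16.01, 15.82 and 15.91 in Keap1-HKO mice, 15.12, 14.75 and 14.44 in Keap1-KD mice, 11.70, 10.84 and 10.86 in Nrf2-null mice and 13.89, 12.72 and 13.32 in wild-type mice. The 4 genotypes did not overlap: every Keap1-HKO array lay above every Keap1-KD array, these above every wild-type array, and these above every Nrf2-null array. Its mean un-logged intensity was 477% ± 21.8 higher in Keap1-HKO mice and fell by 78.2% ± 4.58 in Nrf2-null mice, in both cases against wild-type mice (SEM, n = 3, here and below; the error of wild-type mice is not in it). The log2 fold changes were 2.60 (standard error 0.32, limma with Benjamini-Hochberg adjustment, adjusted p = 0.00179) in Keap1-HKO mice and −2.18 (adjusted p = 0.0173) in Nrf2-null mice. In Keap1-KD mice the intensity was 165% ± 36.2 above that of wild-type mice, a log2 fold change of 1.46 that did not pass (adjusted p = 0.529).

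The other Gstm1 probe sets kept the same order of genotypes with no overlap. For 1425627_x_at the log2 values were 13.82, 13.66 and 13.68 in Keap1-HKO mice, 12.90, 12.40 and 12.31 in Keap1-KD mice, 9.55, 8.66 and 8.92 in Nrf2-null mice and 11.56, 10.42 and 11.29 in wild-type mice. The log2 fold change was 2.63 in Keap1-HKO mice (adjusted p = 0.00151) and −2.05 in Nrf2-null mice (adjusted p = 0.0209). These sizes were close to those of 1448330_at. For 1416416_x_at the values were 15.05, 14.95 and 15.10 in Keap1-HKO mice, 14.73, 14.54 and 14.42 in Keap1-KD mice, 11.95, 11.23 and 11.52 in Nrf2-null mice and 13.90, 13.01 and 13.52 in wild-type mice. Here the rise in Keap1-HKO mice, 1.56 (adjusted p = 0.00574), was the smallest of the 4 Gstm1 probe sets, while the fold change in Nrf2-null mice was −1.90 (adjusted p = 0.00697). For 1425626_at the values were 10.13, 9.25 and 9.49 in Keap1-HKO mice, 8.48, 7.65 and 7.75 in Keap1-KD mice, 4.86, 4.14 and 4.29 in Nrf2-null mice and 6.79, 5.92 and 6.38 in wild-type mice. It rose by 3.26 in Keap1-HKO mice (adjusted p = 0.00051), the largest of the 4. On 3 of 3 Nrf2-null and 2 of 3 wild-type arrays this probe set was under an intensity of 100 (6.64 on the log2 scale), the level the study used to call a probe set expressed. Its fall without Nrf2 (−1.93, adjusted p = 0.0386) was thus measured mostly under that level, and with values raised to 100 it was −0.05 and did not pass. In the naming of these arrays _x marks a set with probes that can bind other transcripts and _s a set whose probes all match several, so that members of this family may share signal.

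Gstm3 had the largest differences of the cluster. Probe set 1427474_s_at had log2 values of 14.61, 14.37 and 14.59 in Keap1-HKO mice, 13.20, 12.14 and 11.65 in Keap1-KD mice, 7.10, 6.75 and 6.36 in Nrf2-null mice and 11.13, 9.71 and 10.26 in wild-type mice. Again the 4 genotypes did not overlap. The mean intensity was 1543% ± 84.7 higher in Keap1-HKO mice (log2 fold change 4.15, standard error 0.42, adjusted p = 0.000556) and fell by 92.4% ± 1.10 in Nrf2-null mice (−3.63, adjusted p = 0.00479), against wild-type mice. In Nrf2-null mice it was near the level of expression, with a mean intensity of 109 ± 15.8 and 1 of 3 arrays under 100. The intensity in Keap1-KD mice was 299% ± 132 above that of wild-type mice, and this did not pass (1.97, adjusted p = 0.529).

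The second Gstm3 probe set, 1427473_at, had values of 9.73, 9.28 and 9.29 in Keap1-HKO mice, 6.62, 5.60 and 4.98 in Keap1-KD mice, 2.55 on every array of Nrf2-null mice and 4.14, 2.97 and 3.35 in wild-type mice. Every array of the last 3 genotypes was under an intensity of 100, and the equal values in Nrf2-null mice are the lowest that the summary gave for this probe set. The intensity in Keap1-HKO mice, 697 ± 75.1, was therefore at least 6.90-fold higher than in wild-type mice and at least 6.90-fold higher than in Keap1-KD mice, each set against 100. The limma tests were of the deposited log2 values and not of these bounds (adjusted p = 2.19e-05 and 0.00133). Both Gstm3 probe sets thus rose in Keap1-HKO mice, but 1 of them could show no fall without Nrf2.

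Gstm4 and Gstm2 lie on either side of Gstm1. Gstm4 (1424835_at) had log2 values of 11.99, 11.55 and 11.56 in Keap1-HKO mice, 10.06, 9.86 and 9.90 in Keap1-KD mice, 7.97, 6.87 and 6.94 in Nrf2-null mice and 8.88, 7.95 and 8.53 in wild-type mice. Relative to wild-type mice it was 828% ± 98.2 higher in Keap1-HKO mice (3.25, standard error 0.31, adjusted p = 0.000396). Nrf2-null and wild-type arrays overlapped by 1 pair, Nrf2-null replicate 1 and wild-type replicate 2, and the difference of −1.19 did not pass (adjusted p = 0.261). Gstm2 (1416411_at) had values of 12.19, 11.82 and 11.53 in Keap1-HKO mice, 11.05, 10.43 and 9.93 in Keap1-KD mice, 8.96, 8.33 and 8.01 in Nrf2-null mice and 10.19, 9.60 and 9.85 in wild-type mice. Relative to wild-type mice it was 292% ± 52.9 higher in Keap1-HKO mice (1.97, standard error 0.33, adjusted p = 0.00991). Every Nrf2-null array of Gstm2 lay under every wild-type array, with a difference of −1.44 that did not pass (adjusted p = 0.168), but passed with the replicate number as a block (adjusted p = 0.00922). Keap1-KD and wild-type arrays of Gstm2 overlapped.

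Gstm6 (1422072_a_at) had values of 10.92, 9.59 and 9.88 in Keap1-HKO mice, 10.15, 9.54 and 9.34 in Keap1-KD mice, 8.66, 7.75 and 7.77 in Nrf2-null mice and 9.50, 8.93 and 9.24 in wild-type mice. All Keap1-HKO arrays were above and all Nrf2-null arrays below the wild-type arrays, but neither the difference of 0.91 (95% interval 0.06 to 1.76, adjusted p = 0.229) nor that of −1.16 (−2.01 to −0.31, adjusted p = 0.465) passed. With the replicate number as a block, a pairing that the labels do not state, both passed (adjusted p = 0.0373 for the difference of −1.16). Keap1-HKO and Keap1-KD arrays overlapped.

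Gstm5 and Gstm7, at the start of the cluster, passed in none of the comparisons over all 12 arrays. Gstm5 (1416842_at) had values of 8.84, 8.17 and 8.07 in Keap1-HKO mice, 8.60, 7.88 and 7.97 in Keap1-KD mice, 8.68, 8.09 and 8.84 in Nrf2-null mice and 8.45, 8.09 and 8.15 in wild-type mice. Gstm7 (1419072_at) had values of 10.10, 8.82 and 9.15 in Keap1-HKO mice, 9.53, 9.21 and 9.14 in Keap1-KD mice, 9.81, 9.22 and 9.29 in Nrf2-null mice and 9.35, 9.40 and 9.42 in wild-type mice. Arrays of all genotypes overlapped for both genes. In Keap1-HKO against wild-type mice the log2 difference was 0.13 for Gstm5 (95% interval −0.49 to 0.75) and −0.04 for Gstm7 (−0.69 to 0.62). In Nrf2-null against wild-type mice it was 0.31 for Gstm5 (−0.31 to 0.93) and 0.05 for Gstm7 (−0.61 to 0.71). Both were above an intensity of 100 on all 12 arrays. The intervals do not reach the called rises of the other members, which were 1.56 or more.

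**Figure D1:**
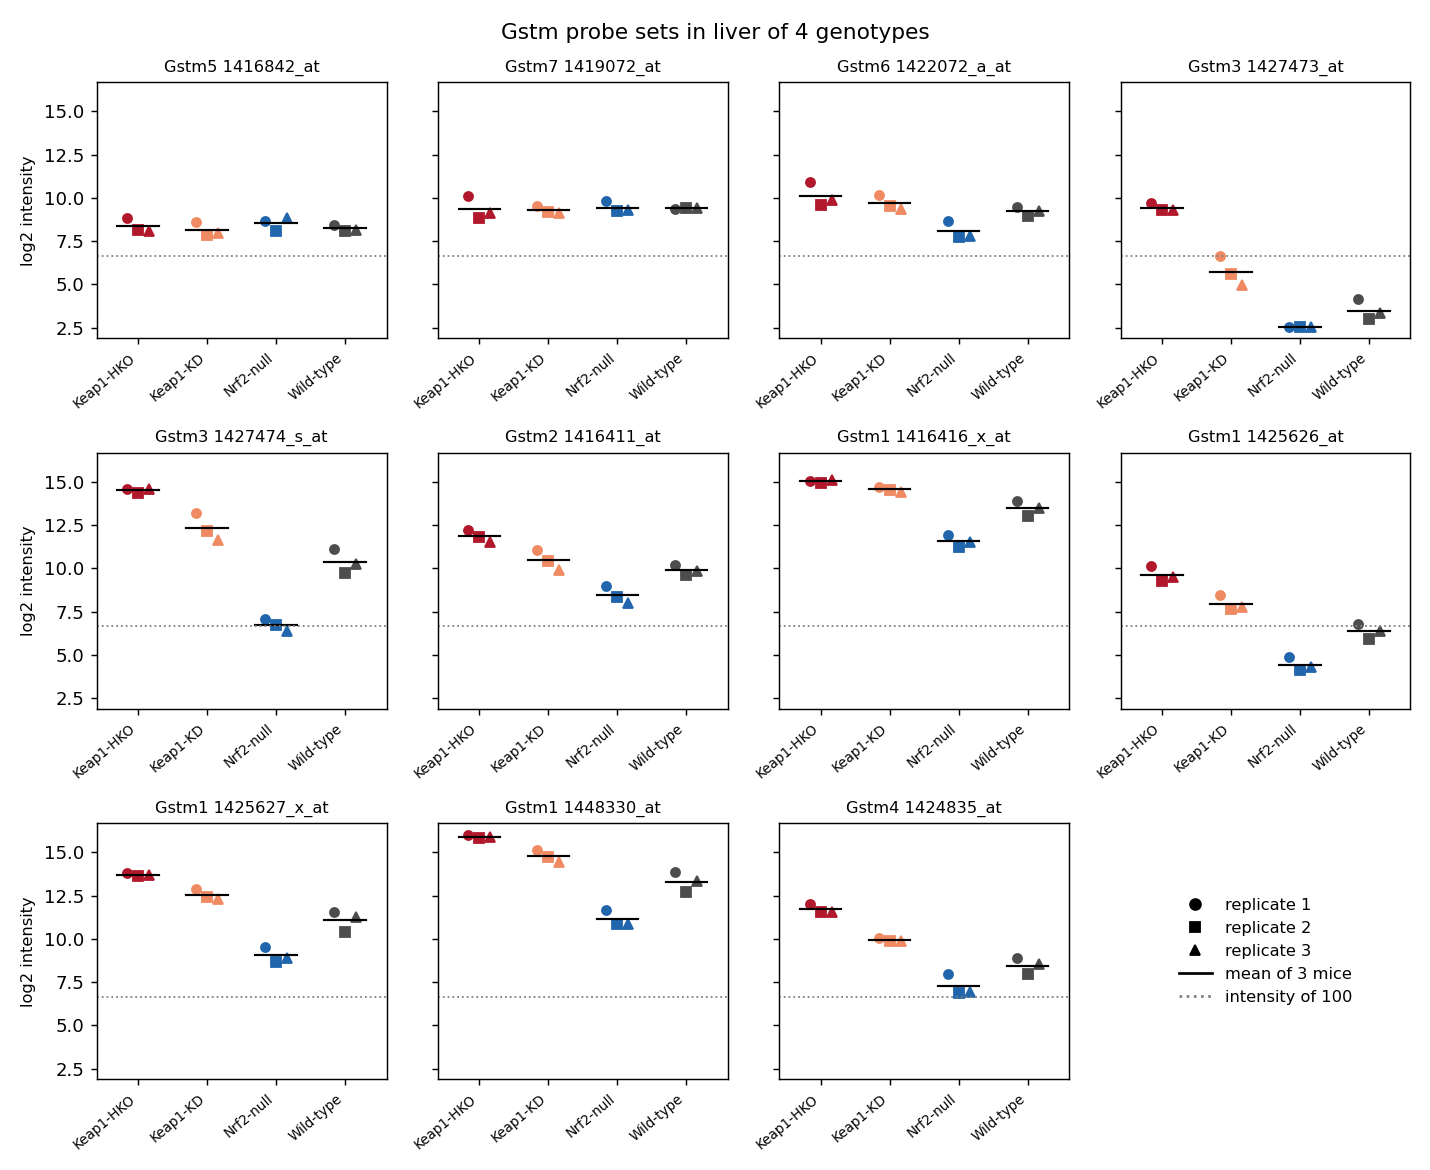
Log2 intensity (y axis) of the 11 Gstm probe sets in the livers of Keap1-HKO, Keap1-KD, Nrf2-null and wild-type mice (x axis), in the order of the genes on the chromosome. Symbols are single mice, bars are means of 3 mice and the dotted line is an intensity of 100; Gstm5 and Gstm7 are level, while Gstm3 1427474_s_at spans 6.36 to 14.61.

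Set probe set by probe set, 8 of the 11 rose in Keap1-HKO mice against wild-type mice and 0 fell, while 2% of all 9571 probe sets tested rose and 2.14% fell. They were all 4 of Gstm1, both of Gstm3, Gstm2 and Gstm4, so that 4 of 7 genes rose. The median log2 fold change was 2.60 over the members and −0.04 over all probe sets. All 3 Keap1-HKO arrays lay above all wild-type arrays for 9 of the 11, against 12.1% of all probe sets. The 8 calls were made without each array in turn. With replicate 1 of both Keap1-HKO and Nrf2-null mice left out the count was 8, among 441 higher of 9571. With the replicate block the count was 9, Gstm6 included, among 297 higher of 9571. Without the arrays with pancreas or muscle transcripts, which leaves 1 Keap1-HKO and 2 wild-type arrays and takes the lone array to vary like the other genotypes, it was 9, with Gstm6 added (1.56, adjusted p = 0.0389), among 1622 higher of 9571.

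In Nrf2-null mice 5 of the 11 probe sets fell against wild-type mice, all 4 of Gstm1 and 1427474_s_at of Gstm3, and 0 rose, while 0.366% of all probe sets fell and 0.0418% rose. The median log2 fold change was −1.44 over the members and 0.02 over all probe sets. For 8 of the 11 all Nrf2-null arrays lay below all wild-type arrays, against 8.25% of all probe sets. The count depended on the arrays used. It was 2 without Nrf2-null replicate 2, without Nrf2-null replicate 3, without wild-type replicate 1 or without wild-type replicate 3. In each, 1416416_x_at of Gstm1 and 1427474_s_at of Gstm3 passed. Over all 9571 probe sets the lower calls in these settings were 25, 19, 16 and 18, against 35 with all arrays. The count was 8 with replicate 1 of both Keap1-HKO and Nrf2-null mice left out, among 73 lower of 9571. There Gstm2 (−1.71, adjusted p = 0.0377), Gstm4 (−1.54, adjusted p = 0.0149) and Gstm6 (−1.46, adjusted p = 0.0277) passed as well. Without the arrays with pancreas or muscle transcripts, 1448330_at and 1425626_at of Gstm1 no longer passed. In a fit of the Nrf2-null and wild-type arrays alone the count was 0, among 7 lower of 9571. With the replicate block it was 7, Gstm2 and Gstm6 included, among 46 lower of 9571. Duncan's multiple range test, which the study's methods name, gave 8 lower on log2 values, against 2.65% of all probe sets, and 2 lower on un-logged values, against 1.86%.

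In Keap1-KD mice 0 of the 11 passed against wild-type mice in limma, while 0.0209% of all probe sets rose and 0.0104% fell, that is 2 probe sets and 1. All the same, 7 of the 11 had every Keap1-KD array above every wild-type array, against 6.59% of all probe sets. These were the probe sets of Gstm1, Gstm3 and Gstm4, with log2 differences of 1.09 to 2.25, the last from 1427473_at, which was under an intensity of 100 on all arrays of both genotypes. At an unadjusted p under 0.05 the count was 7 higher and 0 lower. The share of all probe sets at that level was not counted, so nothing is read from this count. Duncan's multiple range test on log2 values called 7 higher, against 1.31% of all probe sets, and 5 on un-logged values, against 0.940%; limma with array quality weights called 6, among 28 higher of 9571.

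Between the 2 genotypes with less Keap1, 4 of the 11 were higher in Keap1-HKO mice than in Keap1-KD mice and 0 lower, while 0.721% of all probe sets were higher and 0.596% lower. They were both probe sets of Gstm3, Gstm4 (1.76, standard error 0.31, adjusted p = 0.0276) and 1425626_at of Gstm1 (1.66, standard error 0.33, adjusted p = 0.0423). The difference for 1427474_s_at of Gstm3 was 2.19 (standard error 0.42, adjusted p = 0.0393). The brightest Gstm1 probe set, 1448330_at, was 118% ± 8.22 higher in Keap1-HKO mice than in Keap1-KD mice without passing (1.15, adjusted p = 0.154). All Keap1-HKO arrays were above all Keap1-KD arrays for 8 of the 11, against 8.71% of all probe sets. The count fell to 1 (1427473_at of Gstm3) without any one of the 3 Keap1-HKO arrays, Keap1-KD replicate 2, Keap1-KD replicate 3 or wild-type replicate 3. Over all 9571 probe sets 99, 60 and 37 were higher without Keap1-HKO replicates 1, 2 and 3, against 69 with all arrays. The numbers were 24, 19 and 36 without Keap1-KD replicate 2, Keap1-KD replicate 3 and wild-type replicate 3. The Gstm count was 2 without Nrf2-null replicate 2 or 3, among 53 and 55 higher of 9571. Without the arrays with pancreas or muscle transcripts Gstm7 passed as well (0.81). No call is read from that setting, since 1 Keap1-HKO array was left, with no spread of its own. The only Keap1-HKO array left there was replicate 1, which stood apart.

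**Figure D2:**
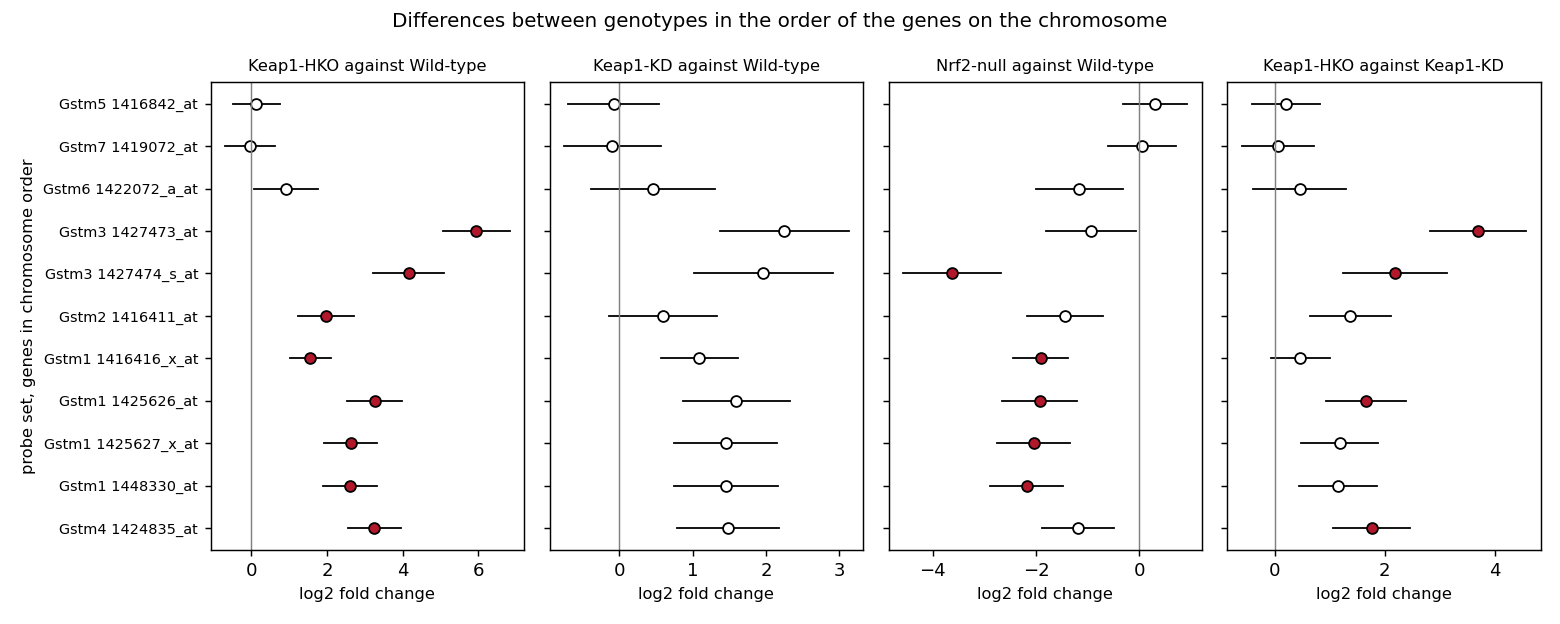
Log2 fold change (x axes) of each Gstm probe set (rows, genes in chromosome order) in Keap1-HKO, Keap1-KD and Nrf2-null mice against wild-type mice and in Keap1-HKO against Keap1-KD mice. Lines are 95% intervals from limma and filled circles passed at an adjusted p of 0.05: 8, 0, 5 and 4 of the 11, with none among Gstm5, Gstm7 and Gstm6.

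Whether a member gained more from the loss of Keap1 than it lost without Nrf2 was tested as the sum of both log2 differences from wild-type mice, which is 0 where rise and fall are equal in size. It passed for 1 of the 11, 1427473_at of Gstm3 (adjusted p = 0.0128), against 0.167% of all probe sets. Nothing is read from this call: the probe set was above an intensity of 100 only in Keap1-HKO mice, so that a rise could be measured and a fall could not. Its sum was 5.01 as deposited and 2.79 with values raised to 100, and the call was lost without wild-type replicate 2 or 3. For the other Gstm3 probe set, 1427474_s_at, the sum was 0.53 (95% interval −1.11 to 2.16). For Gstm1 the sums were −0.34 (−1.26 to 0.57) for 1416416_x_at, 0.43 (−0.81 to 1.66) for 1448330_at, 0.58 (−0.62 to 1.79) for 1425627_x_at and 1.33 (0.06 to 2.60, adjusted p = 0.595) for 1425626_at. The last was also dim in wild-type and Nrf2-null mice, and it passed with values raised to 100 (2.88, adjusted p = 0.0298) and with the replicate number as a block (adjusted p = 0.0321). None of the sums for the bright Gstm1 and Gstm3 probe sets passed, and their intervals leave room for differences of up to 2.16. Gstm4 had a rise of 3.25 beside a difference of −1.19 without Nrf2, a sum of 2.06 (0.85 to 3.27) that did not pass (adjusted p = 0.295). Of the alternatives this sum passed only in limma with array quality weights (adjusted p = 0.0189), among 201 higher of 9571. The sum for Gstm2 was 0.52 (−0.75 to 1.79).

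**Figure D3:**
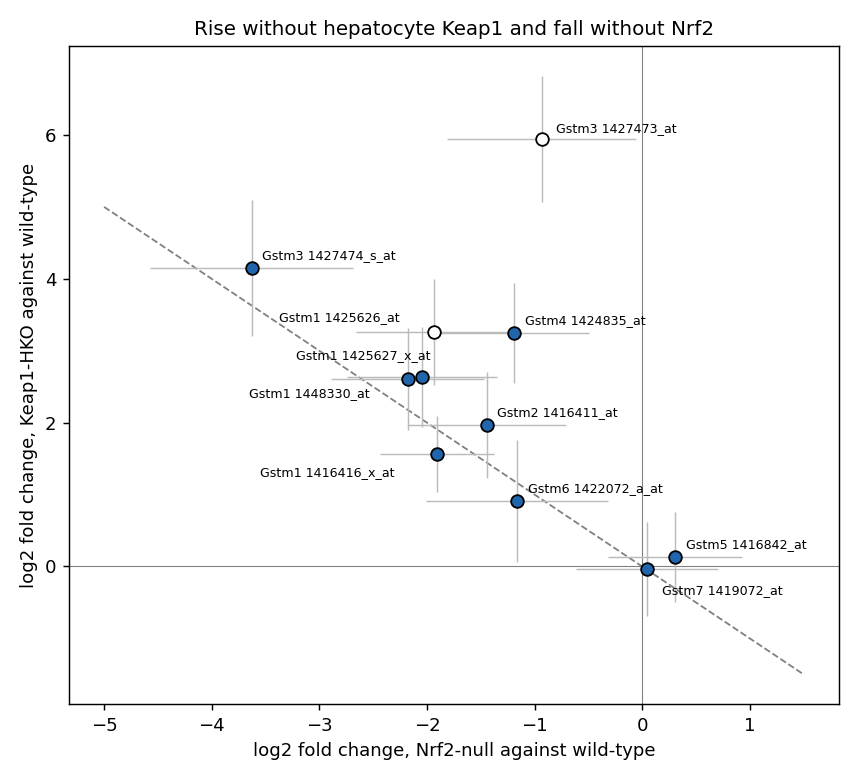
Log2 fold change in Keap1-HKO mice (y axis) against that in Nrf2-null mice (x axis), both relative to wild-type mice, for the 11 Gstm probe sets with 95% intervals. On the dashed line rise and fall are equal in size; open circles had all Nrf2-null arrays under an intensity of 100, and Gstm3 1427473_at, farthest from the line, is one of them.

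Over the genotypes ordered from no Nrf2 through wild-type and Keap1-KD to Keap1-HKO, a linear trend passed upward for 9 of the 11 probe sets, against 4.23% of all probe sets. Slopes are on the log2 scale per unit of the trend score. Neighbouring genotypes lie more than a unit apart on it, so the change per step of genotype is larger in size than the slope. Gstm6, which no pairwise comparison called in the unweighted limma fit of all 12 arrays with no block, passed here (slope 0.33, standard error 0.06, adjusted p = 0.00681). The steepest slope was 1.27, for 1427474_s_at of Gstm3, and Gstm1 had 0.57 to 0.86. The slope of 1427473_at cannot be ranked, since 3 of its genotypes were under an intensity of 100; it was 1.14 as deposited and 0.42 with values raised to 100. The same floor gave 0.51 for 1425626_at of Gstm1. Slopes of Gstm5 (−0.03) and Gstm7 (−0.02) did not pass. The genotype means stood in this order for 9 of the 11, against 7.95% of all probe sets, and for 6 of the 11 (all of Gstm1 and Gstm3) no array was out of order, against 0.522%. The 3 members with no pairwise call in the unweighted limma fit with no block, Gstm5, Gstm7 and Gstm6, are the first 3 of the cluster. The 4 that rose follow one another on its other side. With array quality weights, with the block and in Duncan's multiple range test on log2 values, Gstm6 was called lower in Nrf2-null mice. With the block it was also called higher in Keap1-HKO mice.

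Mice of 1 genotype differed in a common way. Replicate 1 was the highest for 10 of the 11 probe sets among Keap1-HKO arrays (51% of all probe sets), for 11 among Keap1-KD arrays (34%), for 10 among Nrf2-null arrays (49.2%) and for 10 among wild-type arrays (39.4%). In all 4 genotypes at once this held for 8 of the 11, against 11% of all probe sets. Deviations from genotype means correlated between Gstm5 and the 8 probe sets that rose at 0.503 to 0.813, and between Gstm7 and these at 0.338 to 0.765 (Pearson, 12 arrays, as a description, since arrays share their hybridisation and normalization). The replicate numbers come from the labels, which give no batch, and the part of a batch in this was not tested.

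**Figure D4:**
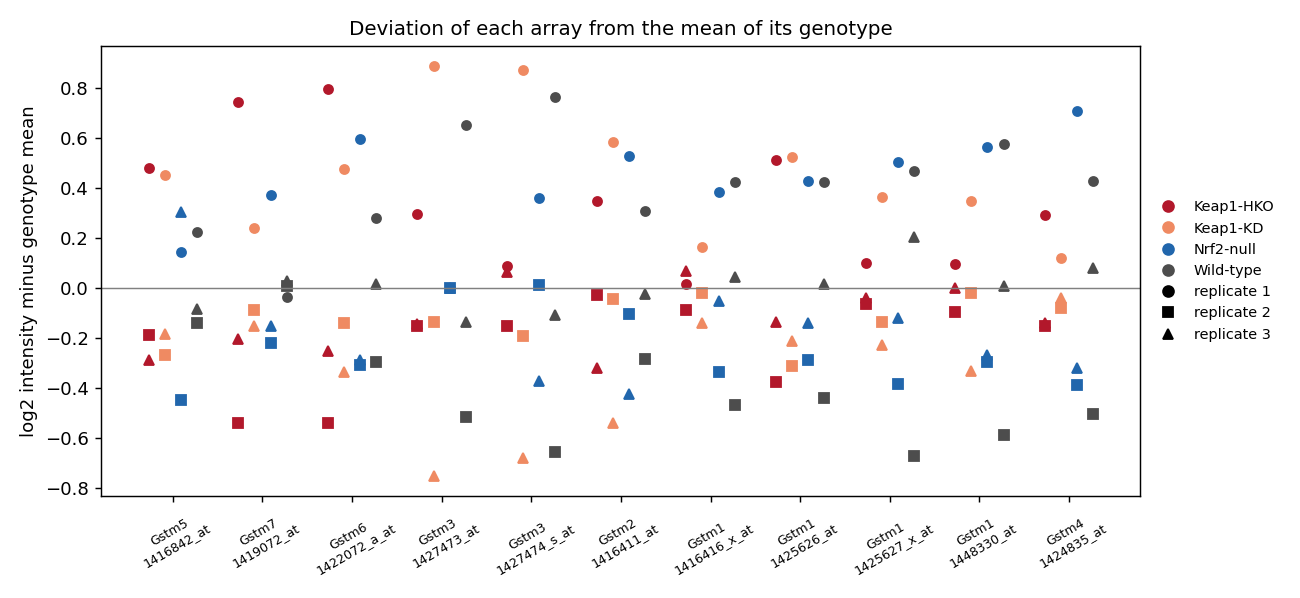
Log2 intensity of each array minus the mean of its genotype (y axis) for the 11 Gstm probe sets (x axis, chromosome order), coloured by genotype, with a symbol for each replicate number. Replicate 1 is the highest of its genotype for 10 of the 11 in Keap1-HKO, 11 in Keap1-KD, 10 in Nrf2-null and 10 in wild-type mice, and of all probe sets for 51%, 34%, 49.2% and 39.4% in the same genotypes.

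Genes outside the cluster with the most similar pattern over the 12 arrays were largely shared by the brightest probe sets of Gstm1 and Gstm3. For Gstm1 1448330_at they were Ephx1, which encodes microsomal epoxide hydrolase (r = 0.992), Gsta2, an alpha-class transferase (0.987), Entpd5, a nucleoside diphosphatase of the endoplasmic reticulum (0.981), Pir, the nuclear protein pirin (0.981), and Abcc3, a basolateral efflux transporter (0.980). For Gstm3 1427474_s_at they were Gsta2 (0.993), Ephx1 (0.986), Entpd5 (0.985), Pir (0.983) and Gsta4 (0.975). These are Pearson correlations over 4 genotypes of 3 arrays each and are given as a description. Each of these genes was higher in Keap1-HKO mice, with log2 fold changes of 1.23 (Pir) to 2.83 (Gsta2). They were picked on these arrays for following probe sets that rose there, so nothing is read from their rise.

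Of the other transferases 13 of 21 were measured, and in Keap1-HKO against wild-type mice 3 rose and 0 fell. These were Gsta4 (279% ± 33.2 higher, 1.97), Gsta2 (559% ± 45.9 higher, 2.83) and the microsomal Mgst3 (468% ± 149 higher, 2.46), with adjusted p of 0.00315, 0.00317 and 0.00537. In Nrf2-null mice only Gsta2 passed among the 13, where it fell by 85.1% ± 0.809 (−2.63, adjusted p = 0.0173). The median log2 fold change of the 13 in Keap1-HKO mice was 0.57. Among genes of glutathione supply (8 of 9 measured) 3 rose in Keap1-HKO mice: Gclc, the catalytic subunit of glutamate-cysteine ligase (188% ± 8.63 higher, adjusted p = 0.000936), Gsr, glutathione reductase (115% ± 4.28 higher, adjusted p = 0.00242), and Gss, glutathione synthetase (92.1% ± 9.96 higher, adjusted p = 0.00802). None of these 8 passed in Nrf2-null mice, where 1 was higher and 0 lower at an unadjusted p under 0.05.

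Among exporters of conjugates (5 of 8 measured) 4 rose in Keap1-HKO against wild-type mice. Abcc4, a basolateral exporter, had mean log2 values of 12.04 in Keap1-HKO mice and 5.25 in wild-type mice, under an intensity of 100 (adjusted p = 6.85e-09). The log2 fold change was 1.84 for Abcc3 (adjusted p = 0.00866), 0.71 for the canalicular Abcg2 (adjusted p = 0.0105) and 0.71 for the canalicular Abcc2 (adjusted p = 0.0208). In Nrf2-null mice Abcc3 fell by 86.9% ± 2.22 (−2.90, adjusted p = 0.0025). Enzymes that process glutathione conjugates (4 of 10 measured) gave 0 calls in limma, also at an unadjusted p under 0.05. Of a list of known Nrf2 targets outside the Gstm cluster (18 of 22 measured, chosen from what is known of the pathway), 13 rose in Keap1-HKO mice, 2 rose in Keap1-KD mice, and 1 fell in Nrf2-null mice. The rises with the lowest adjusted p were those of Cbr3, a carbonyl reductase, Abcc4, Srxn1, which encodes sulfiredoxin, and Nqo1, a quinone reductase. Mean log2 values in Keap1-HKO and wild-type mice were 13.84 and 3.50 for Cbr3, 11.11 and 8.06 for Srxn1, and 9.99 and 4.71 for Nqo1, with those of Cbr3 and Nqo1 in wild-type mice under an intensity of 100.

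Genes next to the cluster were set beside it as neighbours. Of 25 genes within 500 kb in the annotation 6 were measured (Ahcyl1, Ampd2, Gnai3, Psma5, Sort1 and Sars). In Keap1-HKO against wild-type mice 1 of the 6 rose, Sort1, a sorting receptor (adjusted p = 0.0326), with a mean log2 value of 6.84 in Keap1-HKO mice and of 6.05, under an intensity of 100, in wild-type mice. In Nrf2-null and Keap1-KD mice 0 of the 6 passed, with 0 at an unadjusted p under 0.05 in limma. The median log2 fold change of the 6 in Keap1-HKO mice was 0.00.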

How the data were processed

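Liver RNA of 12 mice was hybridised to 1-colour Affymetrix mouse arrays, 1 per mouse. The authors made the deposited log2 values with gcRMA in R (version not stated), a method of background correction by probe sequence, quantile normalization and summary by probe set, and they left out probe sets that no genotype had above an intensity of 100; gcRMA was not repeated here. Their number limits the precision of each mean. gcRMA lowers dim values toward a floor, which widens folds of dim probe sets; folds against a genotype with all arrays under 100 are given as bounds. Gene names came from the platform annotation. Of 9622 probe sets 51 controls were left out, and the 9571 others entered 1 limma fit over the 12 arrays with no block (lmFit, then eBayes; limma 3.58.1, R 4.3.3), with Benjamini-Hochberg adjustment over all of them and calls at an adjusted p of 0.05. Percent changes are of mean un-logged intensities. Replicates were separate mice. Replicate numbers of Nrf2-null and wild-type mice deviated together (correlations of 0.157, 0.237 and 0.106), but the titles give only numbers and name no pairs. Other comparisons had a lower value for at least 1 number. Those of Keap1-HKO against Keap1-KD mice were all positive as well (0.170, 0.118 and 0.0899). The replicate block is thus an alternative and not a known pairing. The named genes were all members, the 5 genes most similar to Gstm1 and to Gstm3, and up to 4 per list; members and lists were chosen with earlier results of these data known. Alternatives were a second quantile normalization, centring, a filter at an intensity of 200, a floor at 100, other probe set choices, trend and robust eBayes, a replicate block, array weights, fits of the compared groups alone, Duncan's multiple range test, a fold of 1.5 and each array left out; leaving out the arrays that stood apart was added after seeing the data. The fit was tested on simulated data.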

Additional observations from a re-analysis of the deposited data

How the results depend on the processing

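The 12 counts of Gstm probe sets were recomputed under 24 or 30 alternatives each. No alternative gave a count above 0 in a direction that had 0 in the report, other than Keap1-KD higher. With 1 probe set per gene, and with the mean over a gene's probe sets, the counts were 4 higher in Keap1-HKO mice, 2 lower in Nrf2-null mice, 2 higher in Keap1-HKO than in Keap1-KD mice, 0 for rise against fall and 5 for the trend, since 7 genes and not 11 probe sets were tested there. Over all 5855 genes 1 probe set per gene gave 123, 21, 46, 13 and 264, and the mean gave 125, 24, 48, 13 and 272. Array quality weights gave 6 higher in Keap1-KD mice, 8 lower in Nrf2-null mice, 7 higher in Keap1-HKO than in Keap1-KD mice and 2 for rise against fall. Over all 9571 probe sets they gave 28, 242, 318 and 201. Fits of only the 2 groups compared gave 7 higher in Keap1-HKO mice, 0 lower in Nrf2-null mice and 1 higher in Keap1-HKO than in Keap1-KD mice. Over all 9571 probe sets they gave 46, 7 and 17. The call lost in Keap1-HKO mice was that of 1416416_x_at of Gstm1 (limma, adjusted p = 0.0735). The replicate block gave 9 higher in Keap1-HKO mice, with Gstm6 gained. It also gave 1 higher in Keap1-KD mice, 7 higher in Keap1-HKO than in Keap1-KD mice and 2 for rise against fall. Over all 9571 probe sets it gave 297, 3, 105 and 32. For Nrf2-null mice it gave 7 lower, with Gstm2 and Gstm6 gained, among 46 lower of 9571. The labels do not state that the numbers pair the mice. Duncan's multiple range test gave, on log2 values, 7 higher in Keap1-KD mice (7 with the overall test adjusted), 8 lower in Nrf2-null mice and 7 higher in Keap1-HKO than in Keap1-KD mice (7 adjusted); on un-logged values it gave 5, 2 and 8, and the same counts adjusted. Rise against fall gave 2 with values raised to 100 (both with dim wild-type and Nrf2-null arrays) and 0 with trend and robust eBayes. With each array left out in turn the counts ran from 2 to 5 lower in Nrf2-null mice, from 1 to 4 higher in Keap1-HKO than in Keap1-KD mice and from 0 to 1 for rise against fall. Over all 9571 probe sets these ran from 16 to 51, from 19 to 99 and from 11 to 57. With replicate 1 of both Nrf2-null and Keap1-HKO mice left out, 1 was higher in Keap1-KD mice (Gstm4) and 8 were lower in Nrf2-null mice. Over all 9571 probe sets these counts were 4 and 73. Leaving out Keap1-HKO replicates 2 and 3 and wild-type replicate 2 left 1 Keap1-HKO array, so its counts are not set beside the others here. There 1448330_at and 1425626_at of Gstm1 no longer passed in Nrf2-null mice. Nor did 1427473_at of Gstm3 pass for rise against fall. The cause of these moves was not tested, apart from the number of genes.

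Signs turned in values that limma did not call over all arrays. Of them, Gstm7 in Keap1-HKO against Keap1-KD mice passed without the arrays with pancreas or muscle transcripts (0.81). No call is read from that setting, since 1 Keap1-HKO array was left. With single arrays left out, Gstm5 ran from −0.11 to 0.27 in Keap1-HKO and from −0.31 to 0.0552 in Keap1-KD against wild-type mice, and from −0.0317 to 0.43 in Keap1-HKO against Keap1-KD mice. Gstm7 ran from −0.41 to 0.23 in Keap1-HKO and from −0.14 to 0.16 in Nrf2-null against wild-type mice, from −0.31 to 0.33 in Keap1-HKO against Keap1-KD mice, from −0.36 to 0.28 for rise against fall and from −0.0732 to 0.0231 for the trend. Rise against fall ran from −0.81 to 0.081 for Gstm1 1416416_x_at, from −0.0868 to 1.05 for 1425627_x_at, from −0.16 to 1.003 for 1448330_at, from −0.13 to 1.29 for Gstm3 1427474_s_at and from −0.65 to 0.0292 for Gstm6. With array weights Gstm5 was −0.10 in Keap1-HKO against wild-type mice, Gstm2 was −0.008 for rise against fall, and Gstm7 was −0.12 in Nrf2-null against wild-type mice, −0.15 in Keap1-HKO against Keap1-KD mice and −0.44 for rise against fall. Centring gave 0.0125 for Gstm7 in Keap1-HKO against wild-type mice. With replicate 1 of both genotypes that stood apart left out, Gstm5 was −0.11 in Keap1-HKO against wild-type and −0.0317 against Keap1-KD mice, and Gstm7 was −0.14 in Nrf2-null against wild-type mice, −0.31 in Keap1-HKO against Keap1-KD mice and −0.55 for rise against fall. Without the arrays with pancreas or muscle transcripts, Gstm7 was 0.71 in Keap1-HKO against wild-type mice and 0.0947 for the trend, Gstm5 was 0.0372 for the trend, and rise against fall was −0.0657 for Gstm1 1448330_at, −0.042 for Gstm3 1427474_s_at and 0.25 for Gstm6.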
